A study of Mus musculus with 7 samples.

Results

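The signal transducers and activators of transcription (STAT factors) and the Janus kinases were followed here through 9 genes, namely Stat2, Stat3, Stat4, Stat5a, Stat5b, Stat6, Jak1, Jak2 and Jak3. They were taken by gene symbol from a table of raw read counts for 57010 genes, and each symbol matched 1 row. The RNA came from Tim4+ resident macrophages of the peritoneal fluid of C57BL/6 mice. There were 4 libraries from mice on day 12 after an injection of m204 MTO and 3 libraries from mice in steady state, with no injection given in the labels. The abbreviation MTO is left as the labels give it, and peritoneal colorectal cancer is named in the title. Cells of both groups were sorted alive by CD11b, MHC class II and Tim4, an engulfment receptor of long-lived peritoneal macrophages.

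Cytokine receptors without a kinase of their own carry Janus kinases on their cytoplasmic tails. A bound cytokine lets the kinases phosphorylate the receptor and then a STAT factor, which pairs with another, enters the nucleus and switches on genes, some of which encode inhibitors of the same kinases. In macrophages this route carries interferon signals through STAT2, interleukin 6 and interleukin 10 signals through STAT3, granulocyte-macrophage colony-stimulating factor through STAT5 and interleukin 4 through STAT6.

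Total counts per library ran from 34578834 to 38586694 at day 12 and from 32077050 to 36201021 in steady state, so that 3 counts in a library, the floor used here, stood for 0.0777 to 0.0935 CPM, the reads of a gene scaled to a fixed library total. Levels are CPM scaled by the trimmed mean of M values (TMM), and errors are SD over n = 4 day 12 and n = 3 steady-state libraries. Differences were tested with edgeR's quasi-likelihood test with Benjamini-Hochberg adjustment over 15981 genes, and "rose", "fell" and "called" stand for an adjusted p under 0.05. The protocol speaks of biological replicates but ties no library to an animal, so p-values speak of the spread among libraries, which may be technical. In a bulk library, fewer cells that hold a transcript and less of it per cell cannot be told apart.

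All 9 members passed the filter on low counts. Stat2, Stat3 and Jak3 rose at day 12, Stat4 and Stat5b fell, and Stat5a, Stat6, Jak1 and Jak2 did not pass. The 5 calls stood against a background of 20.3% of all genes tested that were called in either direction, with 10.1% called higher and 10.2% called lower. The members' median log2 fold change was 0.02, beside 0.00 over all genes tested, and the median of its absolute size was 0.43, beside 0.29 over all genes tested. In the same 5 members the day 12 libraries did not overlap those of steady state, which was also seen in 35.0% of all genes tested. Day 12 replicate 4 was the highest or the lowest day 12 library for 8 of the 9 members, the exception being Stat4. The share of all genes tested with replicate 4 at an extreme was not computed, so this count is not read as a trait of the members. Replicates 2 and 4 also differed from the other day 12 libraries beyond the members.

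**Figure D1:**
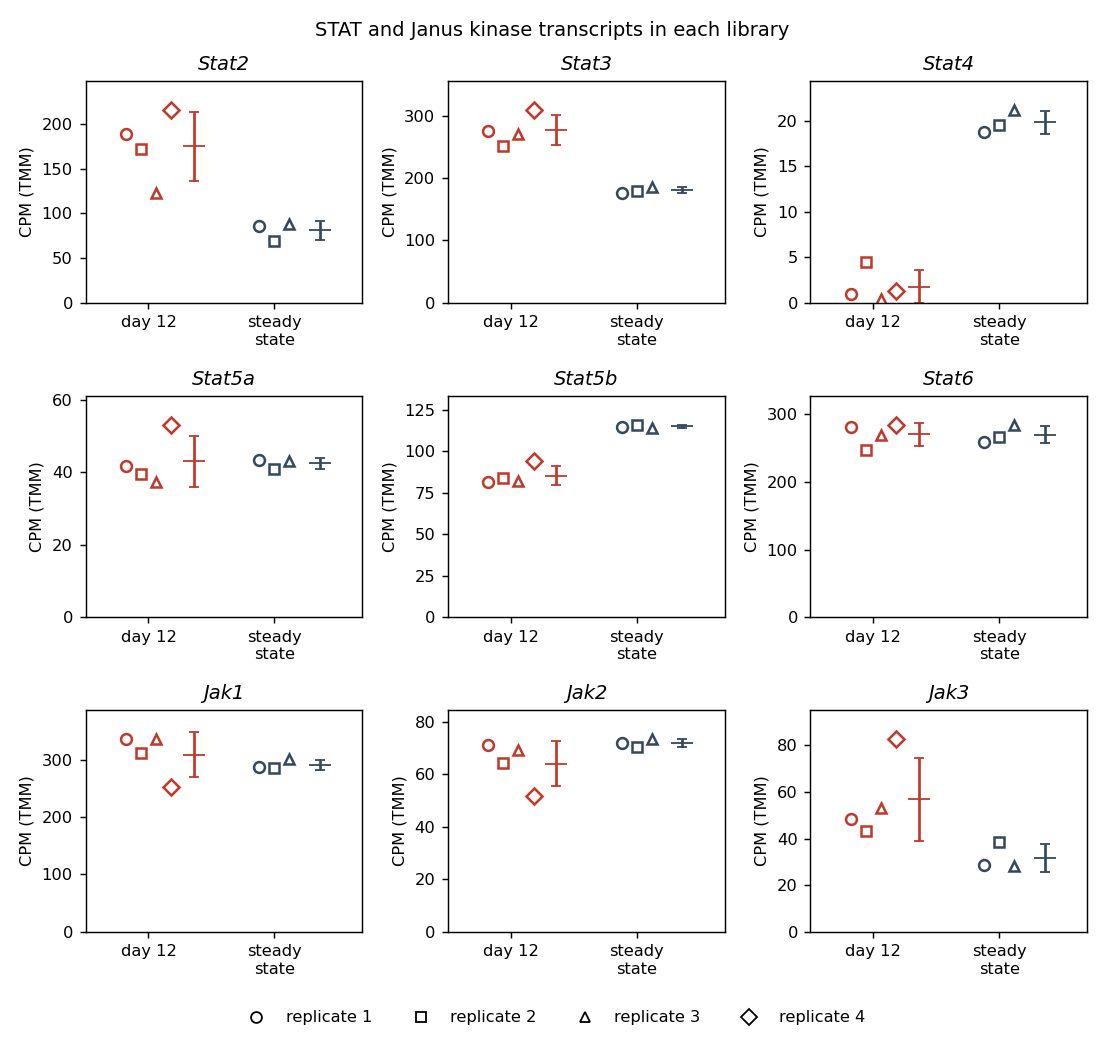
CPM of each member (vertical axis, from 0) in every library, day 12 on the left and steady state on the right of each panel; the bar beside the points is the mean ± SD. Stat2, Stat3, Stat4, Stat5b and Jak3 show no overlap between the groups, and day 12 replicate 4 is the highest day 12 library for Jak3 and the lowest for Jak1 and Jak2.

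The promoters of Stat2, Stat3 and Stat4, the STAT genes with the largest rises and the largest fall, are shown because their start regions can be read for the sites that STAT complexes bind. Each runs from 250 bases before to 50 bases after a start site in RefSeq, build GRCm38.p6, on the strand of the gene, and capitals mark a match to a motif. Stat2 lies at chr10:128270248-128270547 (plus strand), Stat3 at chr11:100939491-100939790 (minus strand), and Stat4 has start sites in chr1:51986898-51987197 and chr1:52007990-52008289 (plus strand).
Stat2: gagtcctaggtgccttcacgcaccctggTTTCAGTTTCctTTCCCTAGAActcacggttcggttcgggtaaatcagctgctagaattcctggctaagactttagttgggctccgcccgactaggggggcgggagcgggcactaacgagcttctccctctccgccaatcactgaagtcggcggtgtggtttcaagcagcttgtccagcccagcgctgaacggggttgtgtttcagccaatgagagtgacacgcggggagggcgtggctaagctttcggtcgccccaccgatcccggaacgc
Stat3: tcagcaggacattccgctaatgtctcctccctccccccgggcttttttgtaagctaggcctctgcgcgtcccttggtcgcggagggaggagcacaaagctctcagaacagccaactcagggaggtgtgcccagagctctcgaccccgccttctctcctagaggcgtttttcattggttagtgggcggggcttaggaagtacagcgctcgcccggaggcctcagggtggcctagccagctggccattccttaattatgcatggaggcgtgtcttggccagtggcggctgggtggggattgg
Stat4, first start site: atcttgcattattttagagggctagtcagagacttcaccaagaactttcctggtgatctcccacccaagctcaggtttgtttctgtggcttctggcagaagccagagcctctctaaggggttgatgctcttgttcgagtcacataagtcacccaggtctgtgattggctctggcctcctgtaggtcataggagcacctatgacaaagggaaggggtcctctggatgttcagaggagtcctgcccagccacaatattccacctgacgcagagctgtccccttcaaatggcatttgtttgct
Stat4, second start site: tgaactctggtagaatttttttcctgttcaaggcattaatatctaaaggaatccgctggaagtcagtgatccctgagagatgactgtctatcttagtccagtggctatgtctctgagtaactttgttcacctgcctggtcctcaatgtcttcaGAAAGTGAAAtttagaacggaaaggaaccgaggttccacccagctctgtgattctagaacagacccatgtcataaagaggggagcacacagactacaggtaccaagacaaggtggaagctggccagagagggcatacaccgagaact
The motifs searched on both strands were the gamma-activated site TTCNNNGAA, which STAT dimers bind, its form with a spacer of 4 bases favoured by STAT6, and the core of the interferon-stimulated response element, GAAA repeated after 2 free bases, which the complex of STAT2 with IRF9 binds. The Stat2 window held the response element core in its reverse orientation as TTTCAGTTTC, 222 bases before the start, and the longer-spaced site as TTCCCTAGAA, 210 bases before it, with no base shared between them. The second Stat4 window held the response element core as GAAAGTGAAA, 97 bases before the start, and neither the first Stat4 window nor the Stat3 window held a match. Of the 12 windows listed for the 9 members, which had at least 1 each, only these 2 held any match. Among the 32851 promoters of the table, 8.30% held the gamma-activated site, 6.95% its longer-spaced form and 3.44% the response element core. These matches describe letters in the windows and not binding.

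Stat2, the partner of IRF9 in the complex that switches on type I interferon response genes (ENSMUSG00000040033, GRCm39 chromosome 10, 128106428 to 128128718), stood at 189, 173, 123 and 216 CPM in day 12 replicates 1 to 4, against 86.2, 68.9 and 88.5 CPM in steady-state replicates 1 to 3. Every day 12 library lay above every steady-state library, with replicate 3 the lowest of day 12. The log2 fold change was 1.11 (SE 0.19, edgeR adjusted p = 0.00347), a 2.16-fold higher level.

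Stat3, which carries the signals of interleukin 6 and interleukin 10 (ENSMUSG00000004040, chromosome 11, 100775924 to 100830366), stood at 276, 252, 272 and 310.0 CPM at day 12, against 177, 180.4 and 186 CPM in steady state. The day 12 libraries all lay above the steady-state ones, and the spread within each group was small, with a coefficient of variation of 8.67% at day 12 and 2.51% in steady state. Stat3 rose by a log2 fold change of 0.62 (SE 0.11, edgeR adjusted p = 0.00360). The calls of Stat2 and Stat3 held in each alternative fit run, with log2 fold changes from 0.98 to 1.25 and from 0.56 to 0.69.

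Stat4, best known in T cells and natural killer cells as the factor activated by interleukin 12 (ENSMUSG00000062939, chromosome 1, 52026307 to 52146348), held 0.901, 4.47, 0.447 and 1.25 CPM in day 12 replicates 1 to 4, against 18.8, 19.5 and 21.2 CPM in steady state. In reads these were 34, 178, 17 and 43 at day 12, against 634, 696 and 664 in steady state. All 4 day 12 libraries were low, and replicate 2 held several times the level of the others. The log2 fold change of -3.48 (SE 0.68, edgeR adjusted p = 0.0119) lay at percentile 0.407 of all genes tested. Without day 12 replicate 2 it was -4.49 (adjusted p = 0.000147), and with no filter on low counts the adjusted p was 0.05001, just above the threshold.

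Stat5a and Stat5b encode a pair of closely related factors downstream of granulocyte-macrophage colony-stimulating factor, interleukin 3 and growth hormone. Stat5b (ENSMUSG00000020919, chromosome 11, 100671557 to 100741550) stood at 81.7, 83.5, 81.7 and 93.8 CPM at day 12, against 114, 116 and 114 CPM in steady state. All day 12 libraries were lower than all steady-state ones, and replicate 4 lay closest to steady state. Stat5b fell by 0.43 on the log2 scale (SE 0.09, edgeR adjusted p = 0.0114), a call that ended when steady-state replicate 1 (adjusted p = 0.0698), 2 (0.0561) or 3 (0.0534) was left out. Stat5a (ENSMUSG00000004043, chromosome 11, 100750177 to 100775995) stood at 41.8, 39.6, 37.4 and 53.2 CPM at day 12, against 43.4, 40.8 and 43.2 CPM in steady state. Its groups overlapped, with day 12 replicate 4 above, replicate 1 within and replicates 2 and 3 below the steady-state range. The log2 fold change of Stat5a was 0.02 (SE 0.13, edgeR adjusted p = 0.942).

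The 2 STAT5 genes share stretches of sequence. Of the windows of 100 bases, the read length, in the GENCODE M21 transcripts, 265 occurred in both genes, which was 3.44% of those of Stat5a and 4.79% of those of Stat5b. No other pair of members shared such a window. The sources used here do not say how the authors' counting treated reads from shared stretches.

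Stat6, the factor through which interleukin 4 and interleukin 13 act (ENSMUSG00000002147, chromosome 10, 127478855 to 127496826), stood at 281, 246, 269 and 285 CPM at day 12, against 258, 267 and 283 CPM in steady state. The groups overlapped throughout, and the log2 fold change was 0.00 (SE 0.10, edgeR adjusted p = 0.980).

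Among the kinases, Jak3, which serves receptors built with the common gamma chain and is most abundant in lymphoid and myeloid cells (ENSMUSG00000031805, chromosome 8, 72128940 to 72143219), stood at 48.2, 43.3, 53.0 and 82.7 CPM at day 12, against 28.5, 38.7 and 28.2 CPM in steady state. The groups did not overlap, day 12 replicate 4 was far above the rest, and steady-state replicate 2 came near the lowest day 12 library. Jak3 rose by a log2 fold change of 0.84 (SE 0.23, edgeR adjusted p = 0.0297), and leaving out steady-state replicate 1 (adjusted p = 0.115) or 3 (0.122) ended the call. Without day 12 replicate 4 the log2 fold change was 0.60 (adjusted p = 0.0162).

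Jak1, the kinase of interferon, interleukin 6 family and common gamma chain receptors (ENSMUSG00000028530, chromosome 4, 101009564 to 101122479), stood at 336, 311, 336 and 253 CPM at day 12, against 288, 286 and 301 CPM in steady state. Day 12 replicate 4 lay below all steady-state libraries and the other day 12 libraries above them. The log2 fold change of Jak1 was 0.09 (SE 0.12, edgeR adjusted p = 0.672), and 0.17 without day 12 replicate 4 (adjusted p = 0.0937). Jak2, which serves the receptors of granulocyte-macrophage colony-stimulating factor, interleukin 3, growth hormone and interferon gamma (ENSMUSG00000024789, chromosome 19, 29229228 to 29290480), stood at 70.9, 64.3, 69.0 and 51.7 CPM at day 12, against 71.8, 70.3 and 73.3 CPM in steady state. Its groups overlapped through day 12 replicate 1, and the log2 fold change was -0.17 (SE 0.12, edgeR adjusted p = 0.374).

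**Figure D2:**
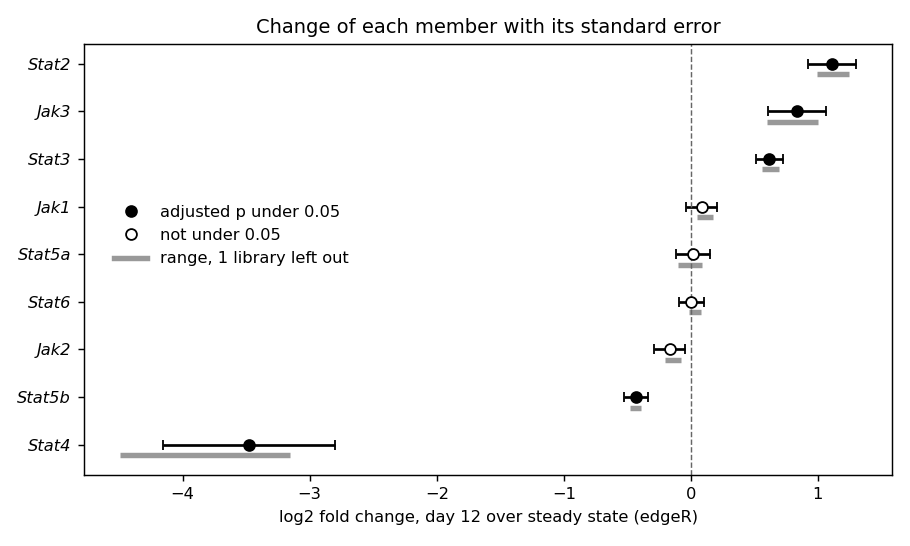
Log2 fold change of day 12 over steady state (horizontal axis) for each member with its standard error; filled points passed an adjusted p of 0.05 and grey bars span the values with 1 library left out. Stat4 lies far from the others at -3.48, with leave-one-out values from -4.49 to -3.15.

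Stat5b, Stat5a and Stat3 are neighbours on chromosome 11 and went different ways. Stat5b and Stat5a lie 8626 bases apart, and the 3′ ends of Stat5a and Stat3 overlap by 72 bases on opposite strands. Within this cluster Stat5b fell, Stat5a did not pass and Stat3 rose. Reads in the overlap cannot be assigned without the strand setting of the counting. Stat6 overlaps Nab2 by 40 bases on the other strand and Jak3 overlaps Insl3 by 1362 bases on the same strand, where Insl3 had a median of 28 counts per library. Stat4 overlaps the long non-coding RNA gene Gm28177 by 29929 bases on the same strand and the pseudogene Gm3940 by 432 bases on the other. Their medians were 0 and 8 counts per library. Jak1 overlaps 3 genes by 4 to 172 bases, with medians of 0 to 2 counts per library.

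Levels of different genes were compared as CPM per kilobase, with exon lengths from GENCODE M21. Stat6 was the most abundant member in both groups, at 61.4 ± 3.92 CPM per kilobase at day 12 and 61.2 ± 2.90 CPM per kilobase in steady state. Jak1 ranked 2 of 9, at 42.8 ± 5.43 CPM per kilobase at day 12 and 40.3 ± 1.14 CPM per kilobase in steady state. Stat4 ranked 9 in both groups, at 0.456 ± 0.474 CPM per kilobase at day 12 and 5.12 ± 0.320 CPM per kilobase in steady state. Stat2 ranked 3 at day 12 with 29.6 ± 6.57 CPM per kilobase and 6 in steady state with 13.7 ± 1.81 CPM per kilobase. Stat5b ranked 5 at day 12 with 15.4 ± 1.05 CPM per kilobase and 3 in steady state with 20.7 ± 0.178 CPM per kilobase. The ranges of neighbours in this order overlapped at day 12 for Jak1 with Stat2, Stat2 with Stat3 and Jak2 with Jak3, and in steady state for Jak2 with Stat2, Stat5a with Jak3 and Jak3 with Stat4, so these pairs did not differ beyond their spread.

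On the same per-length scale, the make-up of the measured STAT transcripts differed between the groups. Stat6 made up 40.8% to 46.8% of the 6 STAT members at day 12 and 47.6% to 49.3% in steady state. Stat2 made up 15.9% to 23.0% at day 12 and 9.47% to 11.8% in steady state, and Stat3 19.8% to 21.8% at day 12 and 14.9% to 15.4% in steady state. Stat5b made up 10.1% to 11.3% at day 12 and 15.7% to 17.0% in steady state, and Stat4 0.0884% to 0.867% at day 12 and 3.94% to 4.18% in steady state. Of the 3 kinases, Jak3 made up 12.6% to 25.4% at day 12 and 8.57% to 11.9% in steady state, with the highest share in day 12 replicate 4. These shares are a description and were not tested.

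**Figure D3:**
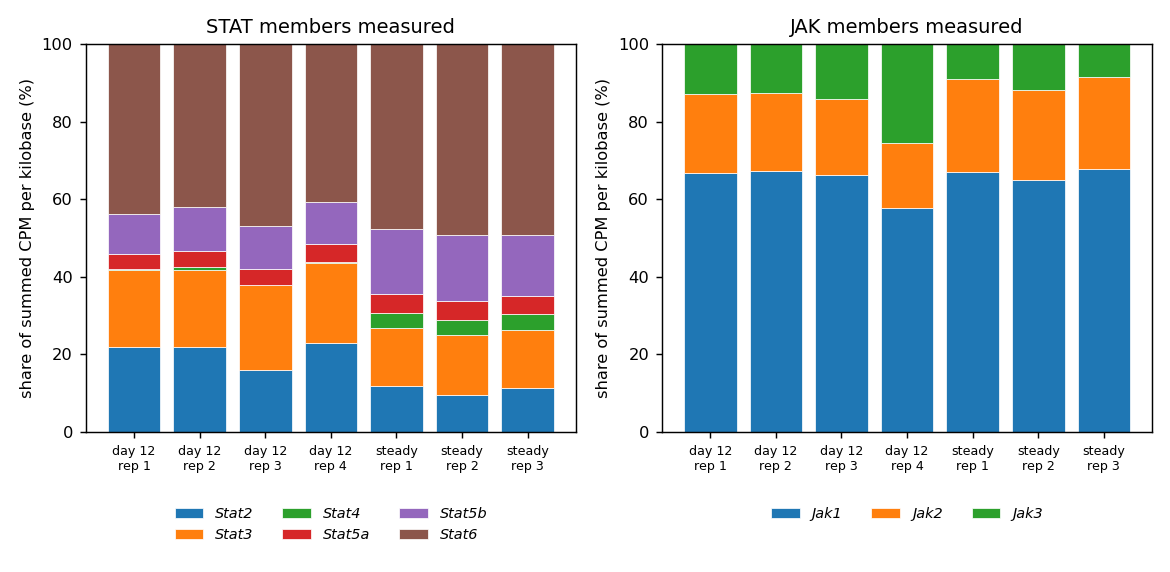
Share of each gene in the summed CPM per kilobase of the STAT members (left) and the Janus kinase members (right), as stacked bars from 0 to 100% for the 4 day 12 and the 3 steady-state libraries. Stat2 and Stat3 take larger and Stat5b and Stat4 smaller shares in every day 12 library than in any steady-state library.

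Ratios of 2 members inside a library do not depend on the scaling between libraries, and 4 pairs were compared by exact permutation of the library labels (two-sided, 35 arrangements), whose smallest p is 0.0286. The ratio of Jak2 to Jak1 counts was 0.211, 0.207, 0.205 and 0.204 in day 12 replicates 1 to 4, against 0.250, 0.246 and 0.244 in steady-state replicates 1 to 3. These ratios were tight within each group and did not overlap, day 12 replicate 4 included. On the log2 scale the difference was -0.25 (-2.27 ± 0.0205 at day 12, -2.02 ± 0.0173 in steady state), with an exact permutation p of 0.0286 and 0.0571 after adjustment over the 4 pairs. The ratio of Stat5a to Stat5b was 0.512, 0.474, 0.458 and 0.567 at day 12, against 0.380, 0.352 and 0.378 in steady state. All day 12 ratios were higher, with a log2 difference of 0.44 (exact permutation p = 0.0286, adjusted 0.0571).

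The ratio of Stat2 to Stat6 was 0.671, 0.700, 0.458 and 0.759 at day 12, against 0.333, 0.258 and 0.312 in steady state. The groups did not overlap, and the log2 difference was 1.09 (exact permutation p = 0.0571, adjusted 0.0762). The ratio of Jak3 to Jak1 was 0.143, 0.139, 0.158 and 0.327 at day 12, against 0.0990, 0.136 and 0.0938 in steady state, a log2 difference of 0.73 (exact permutation p = 0.0857, adjusted 0.0857). Day 12 replicate 4 carried much of it, and without that library the difference was 0.44. None of the 4 pairs passed 0.05 after adjustment.

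**Figure D4:**
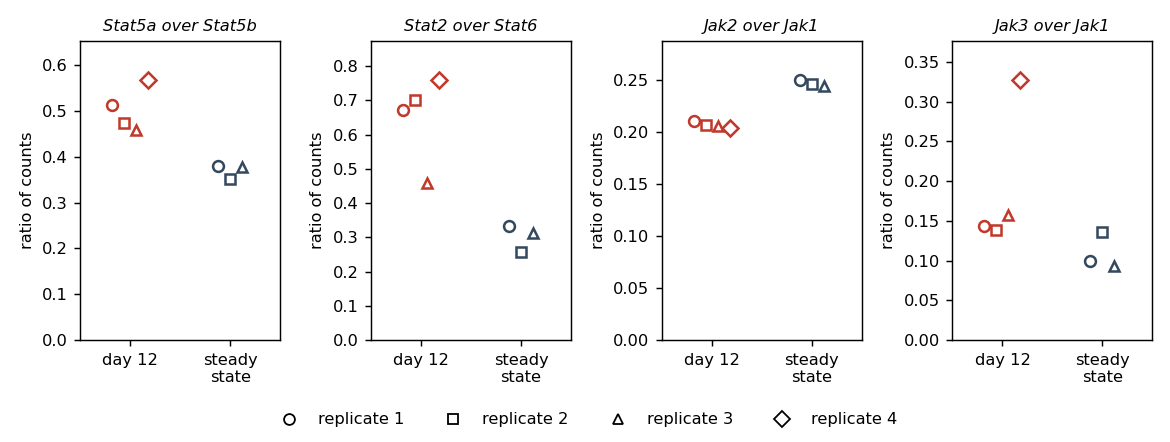
Ratio of the counts of 2 members inside each library (vertical axes from 0), day 12 left and steady state right. The Jak2 to Jak1 ratios form 2 narrow bands, at 0.204 to 0.211 at day 12 and at 0.244 to 0.250 in steady state.

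Genes around these members were counted by role, from lists chosen with earlier results of these data known. Beside each count stand the 10.1% of all genes tested that were called higher and the 10.2% called lower. The partners in either direction are near these shares. So are the receptors, cytokines, STAT3 targets and STAT6 targets that fell. Of 36 receptor chains that use Janus kinases, 28 were tested, 8 rose and 4 fell (median log2 fold change 0.16). Csf2rb, the signalling chain of the receptors for granulocyte-macrophage colony-stimulating factor, interleukin 3 and interleukin 5, rose to 532 ± 80.7 CPM at day 12, against 255 ± 7.17 CPM in steady state (log2 fold change 1.06, edgeR adjusted p = 0.000810). Its near-identical neighbour Csf2rb2 and the ligand-binding chain Csf2ra, both named after their values were seen, rose by log2 fold changes of 1.17 and 0.86, and reads of Csf2rb and Csf2rb2 may be shared. The call of Csf2ra ended when steady-state replicate 1 (adjusted p = 0.0586), 2 (0.0785) or 3 (0.0795) was left out. The leptin receptor gene Lepr rose to 8.27 ± 4.90 CPM at day 12, against 0.293 ± 0.134 CPM in steady state. In the other direction, Csf3r, the receptor of granulocyte colony-stimulating factor, fell to 159.6 ± 39.9 CPM at day 12, against 440.2 ± 8.41 CPM in steady state, and Ifnar1, a chain of the type I interferon receptor, fell to 73.2 ± 4.03 CPM at day 12, against 136 ± 11.5 CPM in steady state. Il12rb2, a chain of the receptor upstream of STAT4 and named after its values were seen, stood at 0.768, 1.56, 0.631 and 1.07 CPM at day 12, against 2.05, 1.90 and 2.24 CPM in steady state, and did not pass (edgeR adjusted p = 0.0513). Leaving out steady-state replicate 2 or 3 left 2 receptors called lower, and leaving out day 12 replicate 4 gave 8.

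Of 28 cytokines that signal through these receptors, 9 were tested, 4 rose and 1 fell (median log2 fold change 1.21), and 7 had no read in any library. Il6, which signals through STAT3, rose to 19.9 ± 4.55 CPM at day 12, against 1.67 ± 0.341 CPM in steady state (log2 fold change 3.57, edgeR adjusted p = 6.86e-05). Oncostatin M (Osm), of the same family, rose to 20.2 ± 4.03 CPM at day 12, against 8.76 ± 0.290 CPM in steady state, and Il7, which signals through JAK1 and JAK3, to 5.21 ± 0.658 CPM at day 12, against 1.95 ± 0.621 CPM in steady state. Ebi3, a subunit of interleukin 27, fell to 1.96 ± 1.49 CPM at day 12, against 10.2 ± 0.892 CPM in steady state, a call that ended when steady-state replicate 1 (adjusted p = 0.0700), 2 (0.0602) or 3 (0.0590) was left out. The gene of the other subunit, Il27, named after its values were seen, rose to 8.01 ± 4.94 CPM at day 12, against 2.48 ± 0.859 CPM in steady state (adjusted p = 0.0322), and leaving out steady-state replicate 2 (0.119) or 3 (0.120) ended its call. Reads of Il4 and Il13, the cytokines upstream of STAT6, numbered 1 and 4 over the day 12 libraries and 4 and 0 over the steady-state libraries.

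Of 19 inhibitors of the pathway, all tested, 5 rose and 0 fell (median log2 fold change -0.05). Of the 8 members of the suppressor of cytokine signalling family in the list, Cish, Socs1, Socs2 and Socs3 rose, and Socs4, Socs5, Socs6 and Socs7 did not pass, with log2 fold changes from -0.27 to -0.0047. Socs3, induced by STAT3 and a brake on the same receptors, stood at 370, 382, 381 and 659.7 CPM at day 12, against 128, 150 and 149 CPM in steady state. All day 12 libraries were higher, with replicate 4 far above the rest (log2 fold change 1.65, edgeR adjusted p = 0.00104). Cish, a target of STAT5, rose to 10.1 ± 2.10 CPM at day 12, against 1.61 ± 0.214 CPM in steady state, Socs2 to 1.47 ± 0.696 CPM at day 12, against 0.246 ± 0.0834 CPM in steady state, and Socs1 to 4.55 ± 3.43 CPM at day 12, against 0.808 ± 0.271 CPM in steady state. Leaving out steady-state replicate 2 (adjusted p = 0.0734) or 3 (0.0686) ended the call of Socs1, and then 3 inhibitors rose. Without day 12 replicate 4, 2 inhibitors fell. The remaining riser was the phosphatase gene Ptpn1, named after its values were seen (edgeR adjusted p = 0.0498), and leaving out any steady-state library or day 12 replicate 1 or 2 ended its call (adjusted p from 0.0572 to 0.148).

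Of 8 partners and coactivators, all tested, 1 rose and 1 fell (median log2 fold change -0.13). The coactivator gene Ncoa1 fell to 71.3 ± 3.72 CPM at day 12, against 112 ± 5.12 CPM in steady state (edgeR adjusted p = 0.00150). Nmi, which binds STAT factors, rose to 20.3 ± 4.11 CPM at day 12, against 13.7 ± 0.253 CPM in steady state (adjusted p = 0.0381), and its call was lost without any of the steady-state replicates (adjusted p = 0.0976, 0.126 and 0.128) and without day 12 replicate 1 (0.0744) or 2 (0.0608). Without day 12 replicate 3 or 4, 2 partners fell. Irf9, the partner of STAT2 and named after its values were seen, stood at 98.6 ± 8.11 CPM at day 12 and 87.9 ± 6.35 CPM in steady state and did not pass.

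Known target genes were counted for each STAT factor, and many of them answer to other factors as well. Of 18 genes induced through the complex that holds STAT2, all tested, 7 rose and 0 fell (median log2 fold change 1.11). With 1 library left out the number that rose ran from 5, without steady-state replicate 1 or 2, to 13, without day 12 replicate 3. Oasl1 rose to 13.4 ± 2.96 CPM at day 12, against 1.87 ± 0.514 CPM in steady state, Oas2 to 343 ± 45.5 CPM at day 12, against 188 ± 36.9 CPM in steady state, Irf7 to 177 ± 63.0 CPM at day 12, against 59.4 ± 11.3 CPM in steady state, and Zbp1 to 144 ± 62.6 CPM at day 12, against 31.9 ± 7.07 CPM in steady state. Oasl1 and Oas2 belong to the oligoadenylate synthetase family of antiviral genes, Irf7 encodes a factor that amplifies interferon production, and Zbp1 encodes a sensor of nucleic acids. Irf7 overlaps Phrf1 on the other strand, so its reads are uncertain without the strand setting.

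Of 16 genes induced through STAT3, 15 were tested, 10 rose and 1 fell (median log2 fold change 1.65). The kinase gene Pim1 rose to 202 ± 45.3 CPM at day 12, against 42.5 ± 1.90 CPM in steady state, and the transcription factor gene Nfil3 to 146 ± 19.1 CPM at day 12, against 45.0 ± 3.80 CPM in steady state. Il1rn, the antagonist of the interleukin 1 receptor, rose to 10.8 ± 2.68 CPM at day 12, against 2.40 ± 0.348 CPM in steady state, and the AP-1 factor gene Fos to 251 ± 44.5 CPM at day 12, against 48.6 ± 17.7 CPM in steady state. The gene that fell was Bcl6, a transcriptional repressor named after its values were seen, at 22.2 ± 3.53 CPM at day 12 and 36.7 ± 6.80 CPM in steady state, and it was not called without steady-state replicate 3.

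Of 10 genes induced through STAT5, 9 were tested, 4 rose and 0 fell (median log2 fold change 0.30). These were Pim1, Cish, Osm and Socs2, given above under other roles, and 1 gene fell without day 12 replicate 4. Of 20 genes induced by interleukin 4 through STAT6, 17 were tested, 12 rose and 2 fell (median log2 fold change 3.60, the same with the 2 genes that had no steady-state read set at their lower bound), while Stat6 itself did not pass. Since results of these samples were known when this list was chosen, its direction is not independent evidence. The factor gene Tfec rose to 38.2 ± 3.43 CPM at day 12, against 9.01 ± 0.970 CPM in steady state, and Cdh1, which encodes E-cadherin, to 2.00 ± 0.658 CPM at day 12, against 0.129 ± 0.0182 CPM in steady state. Arg1 and Slc7a2, of arginine metabolism and transport, had log2 fold changes of 5.61 and 4.51. The STAT6 targets that fell were Mrc1 and Ccl24, named after their values were seen, and without steady-state replicate 3 the call of Mrc1 ended (adjusted p = 0.0501).

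**Figure D5:**
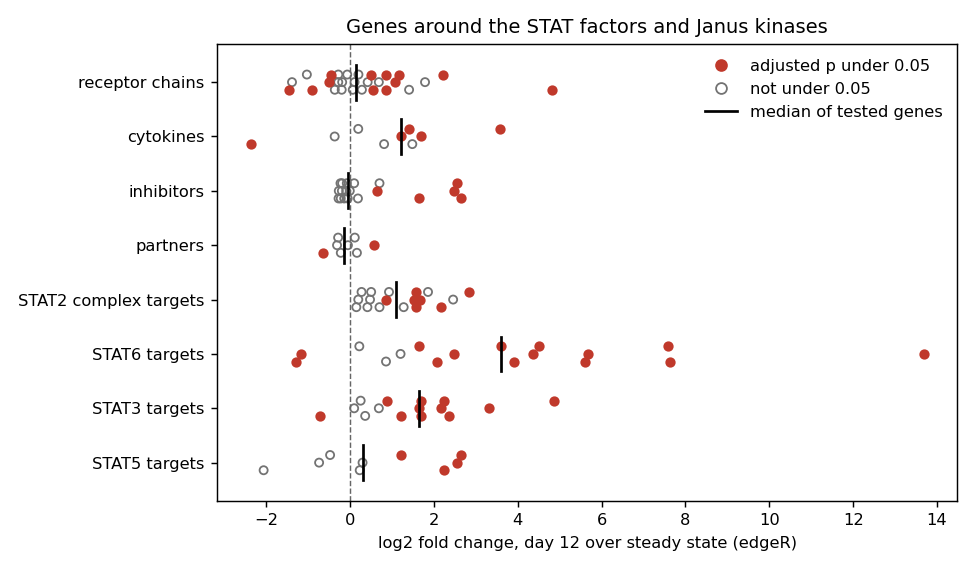
Log2 fold change of day 12 over steady state (horizontal axis) for every tested gene of the 8 lists, with filled points for an adjusted p under 0.05 and a black bar at the median. The medians are 3.60 for STAT6 targets, 1.65 for STAT3 targets, 1.21 for cytokines and 1.11 for STAT2 complex targets, while inhibitors and partners lie at -0.05 and -0.13; the 2 STAT6 targets near 7.6 had no steady-state read, so their fitted values are not a bound.

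For each called member, the 2 protein-coding genes whose centred log2 CPM over the 7 libraries differed least were looked up among 11671 genes, by the root mean square of the difference. Nearest to Stat2 were the clock gene Cry1 and Samhd1, a nucleotide hydrolase that restricts viruses, with differences of 0.109 and 0.111 on the log2 scale. Nearest to Stat3 were Tbc1d13 and Pelp1 (0.0456 and 0.0495). Nearest to Stat4 were Ipcef1 and the lysozyme gene Lyz1 (0.220 and 0.246). Lyz1 is near-identical in sequence to Lyz2, so its share of the reads is uncertain. Ipcef1 stood at 0.636, 3.17, 0.421 and 0.958 CPM at day 12, against 11.5, 13.2 and 12.1 CPM in steady state, and Lyz1 at 46.0, 206, 35.0 and 63.7 CPM at day 12, against 1198, 1351 and 1355 CPM in steady state. Both were highest at day 12 in replicate 2, as Stat4 was. Nearest to Stat5b were Cc2d1b and Mrfap1 (0.0286 and 0.0333), and nearest to Jak3 were the NF-kB inhibitor gene Nfkbia and Sbno2, a gene of the STAT3 target list (0.106 and 0.113). All 10 were called in the direction of their member, which the choice by likeness makes likely. The calls of Cry1, Tbc1d13, Pelp1, Cc2d1b, Nfkbia and Sbno2 were lost without at least 1 of the steady-state libraries.

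Since Stat4 and Jak3 are abundant in lymphocytes, markers of other cells were summed in each library. All 9 macrophage markers were detected in every library, and 4 rose and 3 fell. They summed to 13062 to 19857 CPM at day 12 and 49072 to 50897 CPM in steady state. Lyz2, the macrophage lysozyme gene, fell to 2071 to 10223 CPM at day 12, against 41158 to 42624 CPM in steady state. This fall was larger than that of the sum, and the other macrophage markers together stood higher at day 12. Adgre1, which encodes F4/80, stood at 3919 to 5203 CPM at day 12 and 2471 to 2766 CPM in steady state, and Timd4, which encodes Tim4 of the sort, at 399 to 643 CPM at day 12 and 882 to 1043 CPM in steady state. The 16 T cell markers summed to 2.65 to 7.51 CPM at day 12 and 2.46 to 3.83 CPM in steady state, and the 9 natural killer cell markers to 0.927 to 2.01 CPM at day 12 and 0.0958 to 0.356 CPM in steady state. Of the T cell markers 4 were tested, 1 rose and 0 fell, and of the natural killer cell markers 1 was tested and rose. The risers, named after their values were seen, were Lck and Gzma. Lck had 9, 30, 12 and 22 counts at day 12, against 1, 2 and 6 in steady state. Gzma had 5, 13, 13 and 10 counts at day 12, against 0 in each steady-state library. Both passed the filter on low counts through their day 12 reads, so their rises carry no weight of their own. The steady-state level of Stat4, 19.8 ± 1.24 CPM, was above the summed level of these T cell and natural killer cell markers in each steady-state library. At day 12 the order against the T cell markers was the reverse: Stat4, at 0.447 to 4.47 CPM, lay below their sum in each library. Against the natural killer cell sum, Stat4 lay below in day 12 replicates 1, 3 and 4. In replicate 2 it lay above, at 4.47 against 2.01 CPM. Such sums cover several genes and are not scaled by length. The mean sums were 4.63 CPM (T cell) and 1.53 CPM (natural killer cell) at day 12, against 3.17 and 0.207 CPM in steady state. The part of such cells in the level of Stat4 was not tested. The 10 B cell markers, of which 6 rose and 0 fell, summed to 23.6 to 52.9 CPM at day 12 and 7.14 to 11 CPM in steady state. The B cell sum was 24.6, 52.9, 23.6 and 24.1 CPM in day 12 replicates 1 to 4, and its part in the level of Jak3 was not tested. Of the 6 monocyte markers 4 were tested, Plac8 rose, and Ccr2 and Spn fell, at 5.19 ± 1.99 and 4.69 ± 1.53 CPM at day 12 and 11.8 ± 1.24 and 10.5 ± 3.29 CPM in steady state. Leaving out any steady-state library ended the call of Plac8, replicate 2 that of Ccr2 and replicate 1 or 3 that of Spn (adjusted p from 0.0523 to 0.107). The 6 summed to 26.8 to 183 CPM at day 12 and 53.0 to 62.8 CPM in steady state, with the highest sum, mostly Plac8, in day 12 replicate 4, and their part in the Jak3 level of that library was not tested. The 7 dendritic cell markers summed to 65.5 to 380 CPM at day 12 and 29.6 to 54.9 CPM in steady state, nearly all of it Cd209a, with no read of Siglech. The 9 neutrophil markers summed to 1.19 to 2.73 CPM at day 12 and 1.39 to 2.20 CPM in steady state, with no read of Ly6g. Of these 2 were tested. Mmp8 fell to 0.0462 ± 0.0115 CPM at day 12, against 1.07 ± 0.293 CPM in steady state, and S100a8 did not pass. Reads of S100a9, Ltf, Ngp, Retnlg and Cxcr2 occurred at day 12 alone, and those of Camp in steady state alone. These genes were named after their values were seen. The 10 eosinophil and mast cell markers, of which 2 were tested, 1 rose and 0 fell, summed to 1.5 to 3.02 CPM at day 12 and 1.79 to 1.85 CPM in steady state. The 11 epithelial and mesothelial markers, of which 1 was tested and 0 were called, summed to 0.348 to 0.779 CPM at day 12 and 0.0280 to 0.208 CPM in steady state. The 12 cell cycle genes, of which 0 were called, summed to 89.9 to 309 CPM at day 12 and 194 to 591 CPM in steady state, with 309 CPM in day 12 replicate 2. Replicate 2 also held the highest day 12 sum of macrophage markers, through Lyz2. Lyz2 stood at 10223 CPM in replicate 2, against 2917, 2071 and 3286 CPM in day 12 replicates 1, 3 and 4. Of the other macrophage markers, Adgre1 was lowest in replicate 2, at 3919 CPM, and Timd4 highest, at 643 CPM. The day 12 sums of T cell, natural killer cell and B cell markers were also highest in replicate 2. The same held for the eosinophil and mast cell sum and for the epithelial and mesothelial sum. The part of any of these in the Stat4 level of replicate 2 was not tested.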

How the data were processed

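RNA from sorted Tim4+ peritoneal macrophages was measured in 4 day 12 and 3 steady-state libraries. Per the labels' protocols, poly-A libraries were made from 30 ng of RNA with a directional kit and read as single reads of 100 bases. The authors deposited raw counts per gene (unit: counts). Per the submitters' processing notes the tools included FastQC, STAR 2.7.11a, SAMtools 1.10, featureCounts of Subread 2.0.6 and DESeq2 1.40.2 with build GRCm39; the sources used here give neither the annotation release nor the strand setting nor the treatment of reads with several matches. Columns were matched to samples by library name. For each condition the protocol names 3 biological replicates, but 4 day 12 libraries are listed.

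From the deposited counts, TMM factors and quasi-likelihood tests were computed in edgeR 4.0.16 (R 4.3.3) with the group as the only term, after filterByExpr (minimum count 10, minimum total 15). The fit was also run on simulated counts with 200 changed genes. There 14 of 69 changes of 1.5-fold were called, 52 of 73 of 2-fold and 57 of 58 of 4-fold. Of the 133 simulated calls 10 were false. The changed genes were drawn from those above a set level in steady state. With 133 calls among 15598 genes, against 3242 among 15981 in the data, the adjusted threshold was stricter in the simulation. These rates therefore do not give the detection rate in the data. A member that did not pass may still have changed by a small amount. CPM are TMM-scaled, and the likeness values use log2 CPM with a prior count of 2. Ratios were tested by exact permutation in SciPy 1.17.1. No 2 replicates agreed within sampling noise. The chi-square per degree of freedom was 16.4 to 20.5 between steady-state libraries. Between day 12 libraries it was 28.7 for replicates 1 and 3 and 112 to 221 for pairs with replicate 2 or 4. Alternatives were other scalings, DESeq2 1.42.0, limma-voom (limma 3.58.1), other filters, a replicate block and each library left out. Named in the text are all members, the 4 called genes of lowest p per list and the 2 genes most like each called member; others are marked where they occur. Members and lists were chosen with earlier results of these data known. No genome of build GRCm39 was used here: exon lengths and shared windows come from GENCODE M21 and promoters from RefSeq GRCm38.p6.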

Additional observations from a re-analysis of the deposited data

Results flagged for a closer look

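In 7 of 45 genes examined at day 12, 1 of the 4 libraries lay apart from the other day 12 libraries by Dixon's test (gap over range above 0.829). Chance passes this limit in about 1 in 20 independent groups. The 45 genes share their libraries, and some were chosen for likeness to a member, so their number cannot be set against that rate. Day 12 replicate 4 held the value that stood apart in 5 of the 7 genes. Stat5b was high in replicate 4, at 93.8 CPM. Csf2rb was high in replicate 4, at 653 CPM. Socs3 was high in replicate 4, at 659.7 CPM. Nfkbia was high in replicate 4, at 361 CPM. Il6 was low in replicate 4, at 13.1 CPM. Lyz1 was high in replicate 2, at 206 CPM, and Oas2 was high in replicate 1, at 411 CPM.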

How the results depend on the processing

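Stat2, Stat3 and Jak3 kept their direction in every alternative fit, and so did Stat4 and Stat5b. Stat4 lost its call with no filter (log2 fold change -3.49, edgeR adjusted p = 0.05001) and under the replicate block (-3.82, adjusted p = 0.0699), so 1 member was called lower in each. Among members that were not called, the sign turned for Stat5a under the block (-0.10) and for Stat6 with no filter (-0.0058) and under the block (-0.022). The replicate numbers did not pair the libraries, since same-numbered libraries deviated with correlations of -0.14, 0.01 and 0.20 and not every library matched its own number best. With the block, 4278 genes were called in place of 3242, with 2 residual degrees of freedom. Under the block 7 receptors, 1 inhibitor, 3 partners, 1 STAT6 target and 1 STAT5 target fell and 2 targets of the STAT2 complex rose, with Irf7 (adjusted p = 0.0860) and Zbp1 (0.0938) among the calls lost; with DESeq2 12 of these targets rose. With limma-voom 3 inhibitors and 0 partners rose and 1 STAT5 target fell, and with no filter 0 cytokines fell. With 1 library left out, 857 to 2188 genes were called higher and 904 to 2411 lower; members higher numbered 2 to 3 and lower 1 to 2, receptors lower 2 to 8, cytokines lower 0 to 1, inhibitors higher 3 to 6 and lower 0 to 2, partners higher 0 to 1 and lower 1 to 2, STAT2 complex targets higher 5 to 13, STAT6 targets lower 1 to 2, STAT3 targets lower 0 to 1 and STAT5 targets lower 0 to 1. Log2 fold changes then ran from 1.00 to 1.25 for Stat2, 0.56 to 0.69 for Stat3, -4.49 to -3.15 for Stat4, -0.10 to 0.087 for Stat5a, -0.48 to -0.39 for Stat5b, -0.018 to 0.077 for Stat6, 0.05 to 0.17 for Jak1, -0.20 to -0.07 for Jak2 and 0.60 to 1.00 for Jak3. Of 504 alternative values for 36 other named genes, 26 lost the call. The ratio differences ranged from 0.38 to 0.48 (Stat5a to Stat5b), 0.98 to 1.24 (Stat2 to Stat6), -0.26 to -0.24 (Jak2 to Jak1) and 0.44 to 0.89 (Jak3 to Jak1), where a test with 1 library left out cannot reach 0.05. The cause of these changes was not tested. Reads below 3 per library set the limit for low genes such as Il4 and Il13.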
